A study of Mus musculus with 12 samples.

Results

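The genes described here are 42 integrin and focal adhesion genes, chosen by name among the 17471 genes of the mouse left ventricle libraries. They comprised 14 integrin alpha subunit genes, 8 integrin beta subunit genes and 20 genes of the proteins that join integrins to the actin cytoskeleton. The choice was by gene name, made with earlier results of these data known. All 42 were found, and all were read in each of the 12 libraries. The test of changes covered 41 of them. The exception was Itgb8, whose summed reads over 3 libraries were 24 and 31 in Cre-positive and Cre-negative MI hearts and 9 and 5 in Cre-positive and Cre-negative sham hearts, too few for the filter on low counts.

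The hearts came from mice aged 6 to 10 weeks and were taken 4 days after surgery. All mice carried floxed Yap alleles and were fed tamoxifen citrate from the time of surgery, controls included. Cre-positive animals also carried 1 copy of MerCreMer, a recombinase that tamoxifen activates, driven by the endogenous promoter of Postn (periostin), which is active in activated fibroblasts. Cre-negative animals were siblings with wildtype Postn. Myocardial infarction (MI) was produced by tying off the left anterior descending artery for good and was compared with sham surgery. Each of the 4 combinations, Cre-positive MI, Cre-negative MI, then Cre-positive sham and Cre-negative sham, had 3 libraries. No group carried the recombinase without floxed Yap, so loss of Yap and presence of MerCreMer at the Postn locus cannot be told apart. The labels give a replicate number but do not say whether a library held 1 animal, so p-values measure the spread between these libraries only.

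Integrins are receptors made of 1 alpha and 1 beta subunit that bind extracellular matrix or other cells. Inside the cell, talin and kindlin bind the beta tail and switch the receptor to its active state, after which integrin-linked kinase (ILK), PINCH and parvin proteins, focal adhesion kinase, paxillin and vinculin assemble a focal adhesion. Alpha-actinin, filamin and other crosslinkers anchor that assembly to actin. In cardiomyocytes, related complexes sit at the costameres that tie the Z-disc to the basement membrane. In fibroblasts they bear the traction of a contracting scar, and leukocytes use integrins of their own to leave vessels and enter damaged tissue.

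Total expected counts per library, the gene-level read estimates, ran to 13609502 to 14132503 for Cre-positive MI hearts and 13823268 to 15176286 for Cre-negative MI hearts. Those of Cre-positive sham hearts were 10679705 to 13608483, and those of Cre-negative sham hearts 10257675 to 11726159. Yap1, the floxed gene, stood at 91.1 to 93.9 CPM (counts scaled to a common library size) in Cre-positive MI and 84.6 to 96.4 CPM in Cre-negative MI libraries, and at 102 to 121 CPM in Cre-positive sham and 114 to 116 CPM in Cre-negative sham libraries. The counts are per gene, not per exon, and only cells that express Postn are targeted. All 12 cardiomyocyte markers were read in each group. Cre-positive sham library 2 stood apart: 30 of the 42 genes lay outside the range of the other 5 sham libraries there, 8 above and 22 below, against 8 to 14 of 42 for each of the others. The same share over all tested genes was not computed. This library also stood apart over all tested genes, at 57.8 on principal component 2, an axis of joint variation. The other 5 sham libraries were at -21.4 to -5.7 there. Several values that moved without Cre-positive sham library 2 are given beside the main ones. Y-linked transcripts were present in 1 of 3 Cre-positive and 3 of 3 Cre-negative MI libraries and in 0 of 3 Cre-positive and 2 of 3 Cre-negative sham libraries, so sex and genotype are partly mixed.

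Levels of different genes were compared in FPKM, which divides by transcript length. FPKM were used as deposited, without the scaling applied to CPM. Differences between groups in FPKM can therefore differ in size or direction from those in CPM, on whose counts changes were tested. Itgb1, the beta subunit shared by most matrix receptors, was the most abundant integrin in all 4 groups. It averaged 191 ± 9.17 FPKM in Cre-positive MI and 212 ± 9.15 FPKM in Cre-negative MI, against 99.7 ± 7.65 FPKM in Cre-positive sham and 114 ± 7.71 FPKM in Cre-negative sham hearts (SD, n = 3 each). It made up 67.2% ± 1.11 and 63.7% ± 2.23 of the summed beta subunits in Cre-positive and Cre-negative MI, and 62.7% ± 6.00 and 67.6% ± 1.59 in Cre-positive and Cre-negative sham hearts. Itgb5, a partner of the alpha v subunit, came next, with 66.9 and 79.95 FPKM in Cre-positive and Cre-negative MI hearts and 55.4 and 47.5 FPKM in Cre-positive and Cre-negative sham hearts. Itgb2, the beta subunit of leukocyte integrins, followed after MI, at 19.6 FPKM in Cre-positive and 31.6 FPKM in Cre-negative hearts, against 1.62 and 2.77 FPKM in Cre-positive and Cre-negative sham hearts.

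Among the alpha subunits, 2 genes held the top of the order. Itga7, the laminin-binding alpha subunit of striated muscle, was the most abundant in sham hearts, with 50.5% ± 1.53 of the summed alpha subunits in Cre-positive and 47.3% ± 3.61 in Cre-negative sham hearts, and it held 33.4% ± 2.75 and 25.9% ± 1.95 in Cre-positive and Cre-negative MI hearts. Itga5, the fibronectin receptor alpha subunit, held 26.9% ± 1.21 in Cre-positive MI hearts and 30.2% ± 1.89 in Cre-negative MI, against 20.2% ± 6.38 in Cre-positive sham and 17.1% ± 0.738 in Cre-negative sham hearts. Itga5 exceeded Itga7 in each of the 3 Cre-negative MI libraries, where the ratio of the 2 genes in FPKM was 1.03 to 1.29. In the Cre-positive MI libraries that ratio was 0.707 to 0.897, below every Cre-negative MI library. It was 0.321 to 0.556 in Cre-positive sham and 0.335 to 0.393 in Cre-negative sham libraries, and these 2 groups overlapped. Summed alpha subunits reached 167 to 177 FPKM in Cre-positive MI and 198 to 215 FPKM in Cre-negative MI libraries, against 101 to 120 and 104 to 111 FPKM in Cre-positive and Cre-negative sham libraries. Summed beta subunits were 268 to 293 and 321 to 352 FPKM in Cre-positive and Cre-negative MI, against 148 to 178 and 161 to 176 FPKM in Cre-positive and Cre-negative sham libraries. In scaled CPM, the alpha sums were 774 to 819 in Cre-positive MI and 901 to 950 in Cre-negative MI libraries. Sham alpha sums were 524 to 629 CPM (Cre-positive) and 549 to 557 CPM (Cre-negative). The beta sums were 1020 to 1090 CPM in Cre-positive MI and 1140 to 1200 CPM in Cre-negative MI libraries. Sham beta sums were 637 to 772 CPM (Cre-positive) and 690 to 730 CPM (Cre-negative). Itgb8 was the least abundant subunit in all 4 groups, and both Itgb8 and Itga10 were under 1 FPKM in every library.

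**Figure D1:**
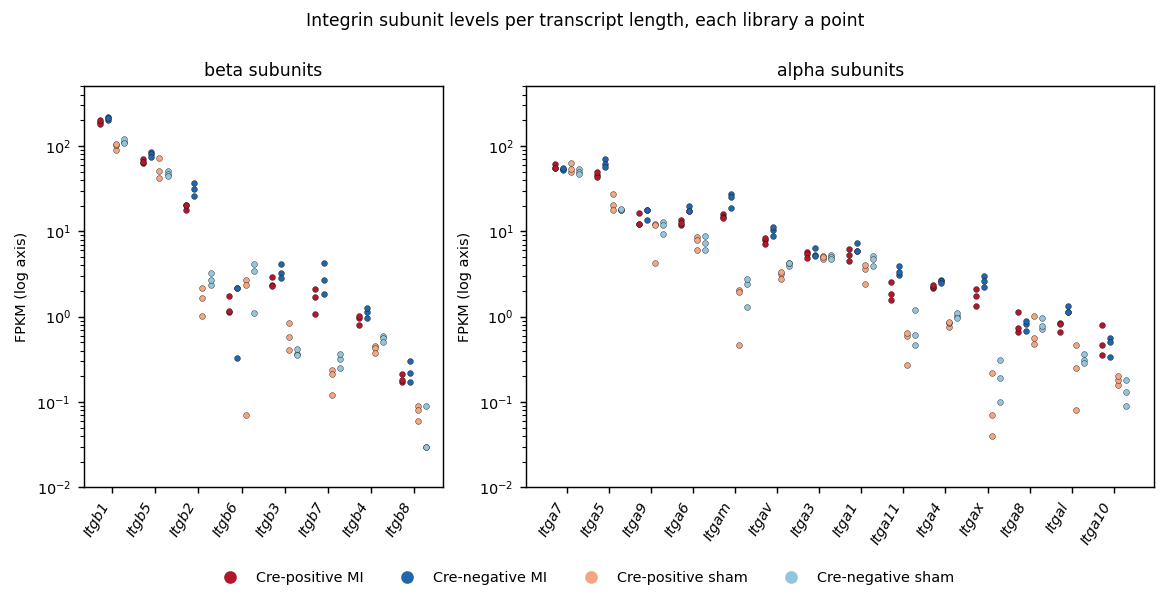
Levels of the 8 beta (left) and 14 alpha (right) integrin subunit genes in FPKM on a log axis, 1 point per library, with the 2 MI groups left of the 2 sham groups and Cre-positive left of Cre-negative for each gene. Itgb1 leads the beta subunits in every group, and Itgb2, Itgam, Itgax and Itgb7 show the widest gap between MI and sham libraries.

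The first question was what infarction did to these genes in each genotype. In Cre-positive hearts 27 of the 41 tested genes rose after MI and 4 fell (adjusted p under 0.05, edgeR quasi-likelihood test), while 25.7% of all 13678 tested genes rose and 19.5% fell. In Cre-negative hearts 28 rose and 4 fell, while 29.9% of all tested genes rose and 24.4% fell. The rises were 65.9% and 68.3% of the tested genes in Cre-positive and Cre-negative hearts. The median log2 fold change of the 41 genes, MI over sham, was 0.71 in Cre-positive and 0.79 in Cre-negative hearts, against 0.015 and 0.024 over all tested genes. The 31 genes called in Cre-positive hearts were also called in Cre-negative hearts and moved the same way, and Itgb5 was called in Cre-negative hearts alone. Without Cre-positive sham library 2, 26 genes rose and 6 fell in Cre-positive hearts, with Itga7 and Parvb added to the falls and Ptk2 lost from the rises. Without Cre-positive MI library 3 the falls in Cre-positive hearts numbered 1 (Tln2), and without Cre-negative sham library 1 the falls in Cre-negative hearts numbered 2 (Tln2 and Lims2).

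Markers of several cell types moved with surgery, and their part in these results was not tested. In bulk tissue, fewer cells of a type and less RNA per cell cannot be told apart. The summed level of 12 cardiomyocyte markers was 79400 to 96500 CPM in Cre-positive MI and 55500 to 75400 CPM in Cre-negative MI, against 122000 to 163000 CPM in Cre-positive sham and 133000 to 152000 CPM in Cre-negative sham libraries. The summed level of 10 fibroblast markers was 12600 to 14000 and 15500 to 17100 CPM in Cre-positive and Cre-negative MI, against 2320 to 3660 and 3510 to 4130 CPM in Cre-positive and Cre-negative sham libraries. That of 8 myofibroblast markers, among them Postn, whose locus carries the recombinase, was 1720 to 2040 and 2940 to 3370 CPM in Cre-positive and Cre-negative MI, against 102 to 236 and 232 to 252 CPM in Cre-positive and Cre-negative sham libraries. That of 14 macrophage and monocyte markers was 1980 to 2200 and 2570 to 3020 CPM in Cre-positive and Cre-negative MI, against 153 to 488 and 417 to 478 CPM in Cre-positive and Cre-negative sham libraries. That of 10 endothelial markers overlapped among all 4 groups, at 1190 to 1480 CPM over the 12 libraries. No marker of these 5 lists was at 0 in any group. Summed neutrophil markers, a list of 10, were 25.3 to 58.8 and 47.0 to 104 CPM in Cre-positive and Cre-negative MI, against 17.5 to 23.2 and 9.22 to 23.5 CPM in Cre-positive and Cre-negative sham libraries, with 1 marker at 0 in all groups but Cre-negative MI. Summed atrial markers, a list of 6, were 2400 to 3540 and 2430 to 3050 CPM in Cre-positive and Cre-negative MI, against 350 to 1350 and 454 to 530 CPM in Cre-positive and Cre-negative sham libraries, with 1 marker at 0 in all groups but Cre-positive sham.

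Itgb1 (mm10, chr8:128685654-128733579) rose in both genotypes. Itgb1 had 753, 739 and 794 CPM in Cre-positive MI and 821, 769.5 and 832 CPM in Cre-negative MI libraries, against 422, 485 and 493 CPM in Cre-positive sham and 520.1, 531 and 491 CPM in Cre-negative sham libraries. Every MI library lay above every sham library. The log2 fold change of Itgb1 was 0.71 ± 0.09 in Cre-positive hearts (SE, n = 3 per group, adjusted p = 8.2e-05) and 0.65 ± 0.09 in Cre-negative hearts (adjusted p = 9.75e-05). Among the collagen-binding alpha subunits, Itga11 (mm10, chr9:62677855-62783979), a receptor of fibroblasts for fibrillar collagen, rose in both genotypes. Itga11 had 11.9, 7.42 and 8.63 CPM in Cre-positive MI and 13.7, 17.7 and 15.5 CPM in Cre-negative MI libraries, against 3.297, 1.56 and 3.61 CPM in Cre-positive sham and 2.54, 6.19 and 3.25 CPM in Cre-negative sham libraries. The MI libraries stood above all sham libraries, and the Cre-positive MI libraries were all below the Cre-negative MI ones. The change of Itga11 on the log2 scale was 1.72 ± 0.34 in Cre-positive (adjusted p = 0.00139) and 1.97 ± 0.32 in Cre-negative hearts (adjusted p = 0.000276). Itga10, another collagen receptor best known from cartilage, had 1.77 to 3.73 CPM in Cre-positive MI and 1.56 to 2.49 CPM in Cre-negative MI, against 0.885 to 1.13 CPM in Cre-positive sham and 0.493 to 1.03 CPM in Cre-negative sham libraries. It rose by 1.36 ± 0.36 and 1.504 ± 0.38 on the log2 scale in Cre-positive and Cre-negative hearts. The sham values of Itga10 rest on 33 reads over the 3 Cre-positive and 23 over the 3 Cre-negative libraries. Itga1, the collagen receptor of smooth muscle and other stromal cells, was not called, with values of 0.44 ± 0.18 and 0.22 ± 0.18 in Cre-positive and Cre-negative hearts, although it passed the threshold in Cre-positive hearts without Cre-positive MI library 2 (adjusted p = 0.0483) or without Cre-positive sham library 3 (adjusted p = 0.0434), and its adjusted p over the 18 alternatives ranged from 0.0434 to 0.229.

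Laminin receptors divided. Itga7 had 208, 239 and 213 CPM in Cre-positive MI and 193, 191 and 209.5 CPM in Cre-negative MI libraries, against 281, 228 and 244 CPM in Cre-positive sham and 241, 209.6 and 206 CPM in Cre-negative sham libraries. The groups overlapped, and Itga7 (mm10, chr10:128933421-128958286) was not called, at -0.19 ± 0.11 in Cre-positive hearts (adjusted p = 0.168) and -0.15 ± 0.11 in Cre-negative hearts (adjusted p = 0.263). Without Cre-positive sham library 2 it was called lower in Cre-positive hearts, at -0.29 ± 0.11 (adjusted p = 0.0447, range over the alternatives 0.0447 to 0.462). Itga3, an epithelial laminin receptor, was not called either, at -0.13 ± 0.11 and -0.11 ± 0.11. Itga6, a laminin receptor of endothelial and epithelial cells, rose by 0.53 ± 0.14 in Cre-positive and 1.06 ± 0.14 in Cre-negative hearts, and its hemidesmosome partner Itgb4 rose by 0.90 ± 0.19 and 0.79 ± 0.18.

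The receptors for the arginine-glycine-aspartate (RGD) motif of fibronectin, vitronectin and the latent form of TGF-beta showed rises of Itga5, Itgav and Itgb3. Itga5 had 189, 186 and 210.3 CPM in Cre-positive MI and 275, 246 and 238 CPM in Cre-negative MI libraries, against 99.3, 139 and 88.1 CPM in Cre-positive sham and 89.1, 82.9 and 89.1 CPM in Cre-negative sham libraries. The sham groups overlapped and Cre-positive sham library 2 was the highest of them. For Itga5 the log2 fold change, MI over sham, was 0.84 ± 0.14 in Cre-positive (adjusted p = 0.000557) and 1.54 ± 0.15 in Cre-negative hearts (adjusted p = 4.1e-06). Without that library the value in Cre-positive hearts was 1.02 ± 0.11. Itgav had 53.05, 48.5 and 55.9 CPM in Cre-positive MI and 64.5, 71.7 and 57.6 CPM in Cre-negative MI libraries, against 24.5, 22.4 and 26.2 CPM in Cre-positive sham and 30.8, 31.1 and 32.4 CPM in Cre-negative sham libraries. All MI libraries exceeded all sham libraries, and within each surgery the Cre-positive libraries lay below the Cre-negative ones. Itgav changed, on the log2 scale, by 1.11 ± 0.11 in Cre-positive hearts (adjusted p = 6.19e-06) and by 1.04 ± 0.10 in Cre-negative hearts (adjusted p = 5.9e-06).

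Itgb3, the alpha v partner that binds vitronectin and osteopontin and also the platelet integrin beta subunit, rose most among the alpha v partners. Itgb3 had 12.9, 12.9 and 16.2 CPM in Cre-positive MI and 16.8, 21.98 and 15.5 CPM in Cre-negative MI libraries, against 3.70, 5.498 and 2.58 CPM in Cre-positive sham and 2.35, 2.197 and 2.66 CPM in Cre-negative sham libraries. The MI libraries did not overlap the sham libraries. The change of Itgb3 on the log2 scale was 1.82 ± 0.23 in Cre-positive (adjusted p = 5.95e-05) and 2.91 ± 0.25 in Cre-negative hearts (adjusted p = 1.83e-06). Summed platelet markers, a list of 10, were higher after MI too, at 49.1 to 51.0 CPM in Cre-positive MI and 64.2 to 106 CPM in Cre-negative MI, against 12.7 to 18.4 and 15.4 to 17.8 CPM in Cre-positive and Cre-negative sham libraries. Of the 10, 1 was at 0 in Cre-positive sham hearts, and their part was not tested. Itgb5 rose in Cre-negative hearts by 0.50 ± 0.17 (adjusted p = 0.0251) and was not called in Cre-positive hearts, at 0.04 ± 0.17, or at 0.27 ± 0.12 without Cre-positive sham library 2, a library in which it stood at 274 CPM (154 to 189 CPM in the remaining 5 sham libraries). The call in Cre-negative hearts was lost without Cre-negative MI library 1 or 2 or Cre-negative sham library 2 or 3, and with Y-linked transcripts as a term (adjusted p over all alternatives 0.00152 to 0.0868). Whether the genotypes differ in that response was tested directly and was not called (log2 difference -0.46 ± 0.24, adjusted p = 0.628). Itga8, a receptor of mesenchymal cells for nephronectin, and Itgb6, an epithelial activator of latent TGF-beta, were not called. Itgb6 was the most uneven member, with 0.367 CPM in Cre-positive sham library 2 against 12.7 and 14.6 CPM in the other libraries of that group, and 1.45 CPM in Cre-negative MI library 1 against 9.55 and 9.81 CPM in the others.

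Several leukocyte integrins were among the largest rises. Itgam (CD11b) and Itgax (CD11c) encode the alpha subunits of myeloid cells and pair with Itgb2 (CD18), and Itgal encodes the alpha subunit of LFA-1. Itgam and Itgax are neighbours on chromosome 7, 11034 bases apart. Itgam had 69.5, 67.1 and 63.9 CPM in Cre-positive MI and 113, 107 and 82.7 CPM in Cre-negative MI libraries, against 10.7, 2.47 and 10.2 CPM in Cre-positive sham and 6.87, 11.6 and 14.1 CPM in Cre-negative sham libraries. Itgb2 had 54.5, 49.96 and 54.6 CPM in Cre-positive MI and 94.6, 81.1 and 69.6 CPM in Cre-negative MI libraries, against 6.92, 3.299 and 5.26 CPM in Cre-positive sham and 7.53, 7.99 and 10.1 CPM in Cre-negative sham libraries. In both genes every MI library was above every sham library and every Cre-positive MI library was below every Cre-negative MI library. For Itgam the log2 fold change, MI over sham, was 3.10 ± 0.38 in Cre-positive (adjusted p = 4.45e-05) and 3.22 ± 0.38 in Cre-negative hearts (adjusted p = 1.9e-05). Itgb2 changed, on the log2 scale, by 3.35 ± 0.21 in Cre-positive hearts (adjusted p = 4.3e-07) and by 3.26 ± 0.21 in Cre-negative hearts (adjusted p = 2.49e-07).

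Itgax had 6.64, 5.16 and 8.03 CPM in Cre-positive MI and 10.8, 8.18 and 9.74 CPM in Cre-negative MI libraries, against 0.965, 0.183 and 0.309 CPM in Cre-positive sham and 0.470, 1.298 and 0.788 CPM in Cre-negative sham libraries. The sham values rest on 17 reads over the 3 Cre-positive and 26 over the 3 Cre-negative libraries. The change of Itgax on the log2 scale was 3.68 ± 0.42 in Cre-positive (adjusted p = 2.54e-05) and 3.48 ± 0.39 in Cre-negative hearts (adjusted p = 1.28e-05). In Cre-positive hearts the value ranged from 3.245 to 4.713 over the alternatives, with the highest without Cre-positive sham library 1. Itgb7, which pairs with alpha 4 on lymphocytes and other leukocytes, was as low in sham hearts. Itgb7 had 5.35, 2.83 and 4.38 CPM in Cre-positive MI and 10.1, 6.56 and 4.67 CPM in Cre-negative MI libraries, against 0.724, 0.366 and 0.619 CPM in Cre-positive sham and 0.753, 0.899 and 1.08 CPM in Cre-negative sham libraries. The MI libraries of both genotypes lay above all sham libraries. For Itgb7 the log2 fold change, MI over sham, was 2.85 ± 0.40 in Cre-positive (adjusted p = 0.000135) and 2.96 ± 0.37 in Cre-negative hearts (adjusted p = 3.31e-05). Itgal rose by 1.30 ± 0.39 and 1.62 ± 0.38 in Cre-positive and Cre-negative hearts, and the value in Cre-positive hearts was 0.82 without Cre-positive sham library 2 and 2.05 without Cre-positive sham library 1. Without Cre-positive sham library 3 that value was 1.204 and was not called (adjusted p = 0.0586, range over the alternatives 0.00093 to 0.071). With only the 6 libraries compared the value of Itgal was 1.309 and was not called either (adjusted p = 0.071). Itga4, the leukocyte receptor for VCAM-1 and fibronectin, rose by 1.22 ± 0.10 and 1.10 ± 0.10, and the related Itga9 was not called, at 0.22 ± 0.30 and 0.26 ± 0.30. In Cre-positive sham library 2 Itga9 had 31.3 CPM, below the 67.6 to 87.1 CPM of the other sham libraries, and without that library its value in Cre-positive hearts was -0.17 ± 0.16. Macrophage and monocyte markers, all 14 of which rose in both genotypes, moved with these genes. Of 6 tested neutrophil markers, 2 rose in Cre-positive and 5 in Cre-negative hearts. Among all tested genes 25.7% rose in Cre-positive and 29.9% in Cre-negative hearts, so the 2 of 6 is close to the general share. The part of either marker list in the leukocyte integrin results was not tested.

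**Figure D2:**
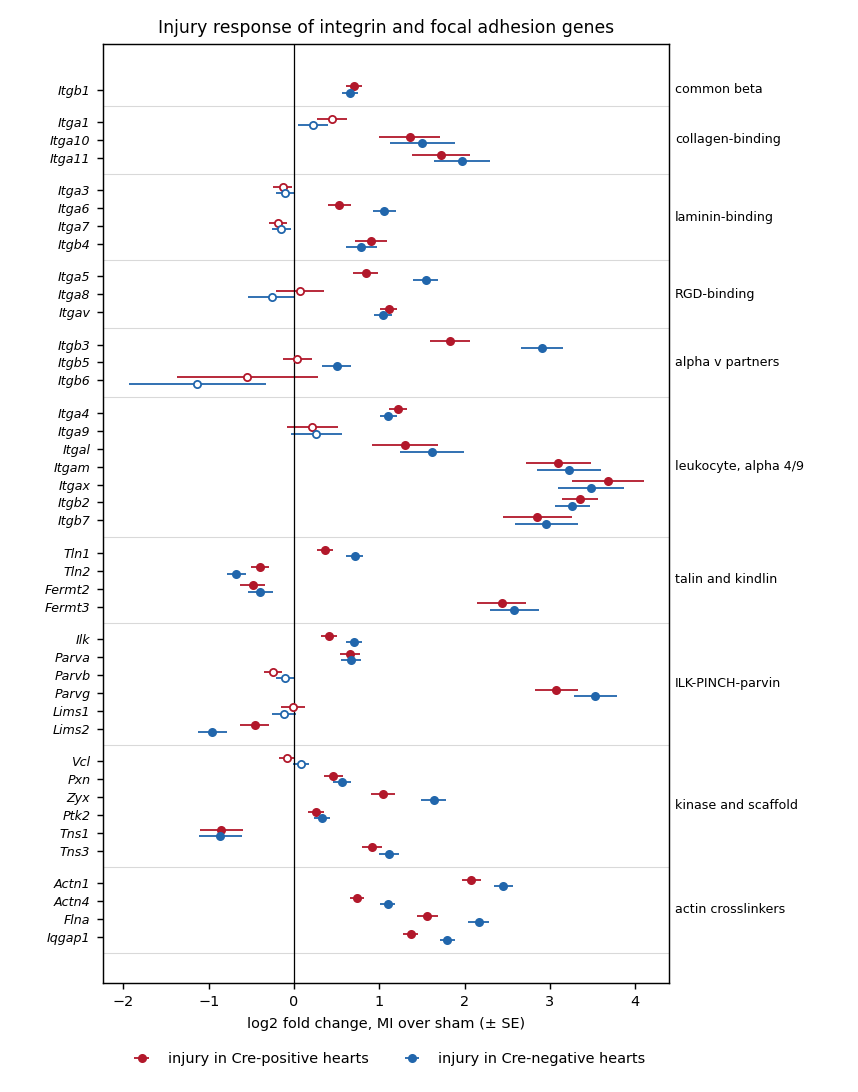
Log2 fold change (MI over sham) with its standard error for the 41 tested genes, by role, in Cre-positive hearts (red) and Cre-negative hearts (blue). Filled points passed an adjusted p under 0.05 and open points did not; Itgax, Itgb2, Itgam, Parvg and Itgb7 lie furthest to the right in both genotypes, and Tln2, Fermt2, Lims2 and Tns1 are the filled points left of 0.

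Inside the cell, related genes of a family moved apart. Talin-1 (Tln1), the widely expressed talin, rose, and talin-2 (Tln2), the talin of mature striated muscle, fell. Tln1 had 319, 301 and 322 CPM in Cre-positive MI and 376, 372 and 355 CPM in Cre-negative MI libraries, against 268, 246 and 219 CPM in Cre-positive sham and 242, 218 and 215 CPM in Cre-negative sham libraries. Tln2 had 116, 122 and 111 CPM in Cre-positive MI and 90.4, 105 and 114 CPM in Cre-negative MI libraries, against 164, 136 and 160.5 CPM in Cre-positive sham and 174, 151 and 170.0 CPM in Cre-negative sham libraries. In both genes the MI and sham libraries did not overlap. Tln1 changed, on the log2 scale, by 0.36 ± 0.10 in Cre-positive hearts (adjusted p = 0.00815) and by 0.71 ± 0.10 in Cre-negative hearts (adjusted p = 5.9e-05). The change of Tln2 on the log2 scale was -0.40 ± 0.11 in Cre-positive (adjusted p = 0.0103) and -0.68 ± 0.11 in Cre-negative hearts (adjusted p = 0.000239). Without Cre-positive sham library 3, Tln1 was not called in Cre-positive hearts (0.26, adjusted p = 0.061, range over the alternatives 0.00225 to 0.061). The ratio of Tln2 to Tln1 in FPKM was 0.261 ± 0.0226 in Cre-positive MI hearts and 0.198 ± 0.0279 in Cre-negative MI, against 0.445 ± 0.0642 in Cre-positive sham and 0.517 ± 0.0365 in Cre-negative sham hearts (SD, n = 3 each).

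Kindlin-2 (Fermt2), the kindlin of muscle and stroma, fell, while kindlin-3 (Fermt3), that of blood cells, rose. Fermt2 had 215, 207 and 201 CPM in Cre-positive MI and 203, 199 and 201 CPM in Cre-negative MI libraries, against 229.7, 377 and 266 CPM in Cre-positive sham and 276, 249.6 and 268 CPM in Cre-negative sham libraries. Fermt3 had 26.1, 27.6 and 30.2 CPM in Cre-positive MI and 44.5, 37.8 and 31.8 CPM in Cre-negative MI libraries, against 7.08, 2.47 and 5.88 CPM in Cre-positive sham and 4.42, 7.59 and 7.096 CPM in Cre-negative sham libraries. The high sham value of Fermt2 in Cre-positive sham library 2 widened that group, and without it the fall in Cre-positive hearts was -0.29 ± 0.09 on the log2 scale (adjusted p = 0.0184). For Fermt2 the log2 fold change, MI over sham, was -0.49 ± 0.15 in Cre-positive (adjusted p = 0.017) and -0.39 ± 0.15 in Cre-negative hearts (adjusted p = 0.0369). Fermt3 changed, on the log2 scale, by 2.43 ± 0.29 in Cre-positive hearts (adjusted p = 3.47e-05) and by 2.58 ± 0.29 in Cre-negative hearts (adjusted p = 1.26e-05). Fermt2 lost its call in Cre-positive hearts without Cre-positive MI library 3 and with only the 6 libraries compared (adjusted p = 0.0819). In Cre-negative hearts Fermt2 lost its call without any 1 of 5 libraries of that genotype. Fermt3 stood at 0.170 ± 0.0184 of the FPKM of Fermt2 in Cre-positive MI hearts and 0.237 ± 0.0384 in Cre-negative MI, against 0.0249 ± 0.0155 and 0.0306 ± 0.00931 in Cre-positive and Cre-negative sham hearts.

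In the complex of ILK, PINCH and parvin, the pseudokinase gene Ilk and alpha-parvin (Parva) rose. Ilk had 154, 141 and 145 CPM in Cre-positive MI and 184, 168 and 175 CPM in Cre-negative MI libraries, against 124, 99.3 and 108 CPM in Cre-positive sham and 113, 107 and 103 CPM in Cre-negative sham libraries. The groups after MI lay above those after sham surgery, and the Cre-positive MI libraries were below the Cre-negative MI ones. The change of Ilk on the log2 scale was 0.41 ± 0.09 in Cre-positive (adjusted p = 0.00379) and 0.70 ± 0.09 in Cre-negative hearts (adjusted p = 5.82e-05). Parva rose by 0.65 ± 0.12 and 0.67 ± 0.12, while Parvb (beta-parvin), the parvin that is strong in heart and skeletal muscle, was not called, at -0.25 ± 0.11 in Cre-positive hearts and -0.11 ± 0.11 in Cre-negative hearts. Parvb, without Cre-positive sham library 2, was called lower in Cre-positive hearts (-0.35 ± 0.11, adjusted p = 0.018, range over the alternatives 0.018 to 0.252), as it was without Cre-positive MI library 1, with Y-linked transcripts as a term and by DESeq2. The FPKM of Parvb was 1.57 to 1.81 times that of Parva in Cre-positive MI and 1.41 to 1.83 times in Cre-negative MI libraries, against 2.97 to 3.55 and 2.58 to 3.05 times in Cre-positive and Cre-negative sham libraries. Parvg (gamma-parvin), the parvin of blood cells, lies 8485 bases beyond Parvb on chromosome 15. Parvg had 7.52, 5.94 and 7.30 CPM in Cre-positive MI and 13.6, 9.62 and 9.74 CPM in Cre-negative MI libraries, against 0.965, 0.916 and 0.516 CPM in Cre-positive sham and 0.941, 0.799 and 1.08 CPM in Cre-negative sham libraries. No sham library reached the lowest MI library. The sham values of Parvg rest on 27 reads over the 3 Cre-positive and 29 over the 3 Cre-negative libraries. For Parvg the log2 fold change, MI over sham, was 3.08 ± 0.26 in Cre-positive (adjusted p = 2.28e-06) and 3.53 ± 0.25 in Cre-negative hearts (adjusted p = 5.03e-07).

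PINCH-2 (Lims2) fell and PINCH-1 (Lims1) was not called. Lims2 had 62.9, 54.5 and 48.1 CPM in Cre-positive MI and 45.2, 43.8 and 48.3 CPM in Cre-negative MI libraries, against 92.97, 64.5 and 70.2 CPM in Cre-positive sham and 111, 83.3 and 72.4 CPM in Cre-negative sham libraries. Sham library 1 was the highest of its group in both genotypes. Lims2 changed, on the log2 scale, by -0.46 ± 0.17 in Cre-positive hearts (adjusted p = 0.0443) and by -0.96 ± 0.17 in Cre-negative hearts (adjusted p = 0.00053). The call in Cre-positive hearts was lost in 8 of the 18 alternatives, and without Cre-positive sham library 1 the value was -0.29 (adjusted p = 0.178). Lims1 had log2 fold changes of -0.01 ± 0.14 and -0.12 ± 0.14 in Cre-positive and Cre-negative hearts.

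**Figure D3:**
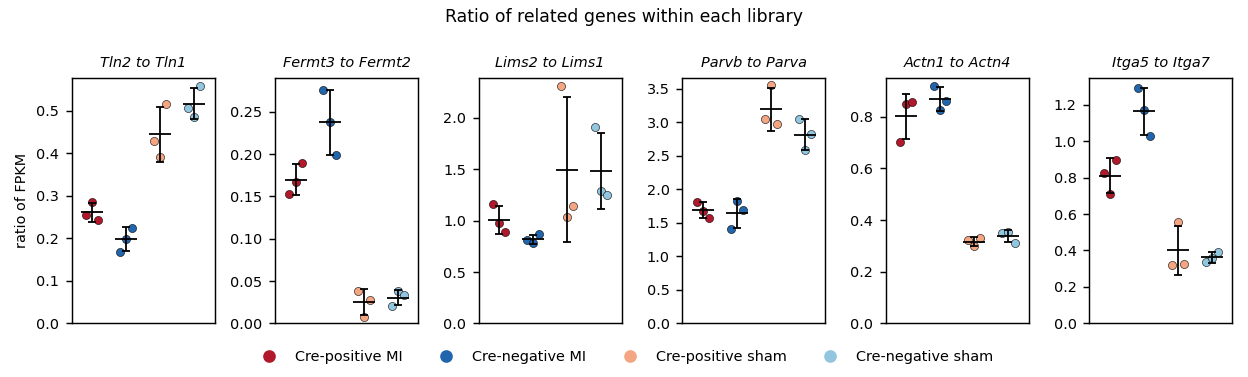
Ratio of the FPKM of related genes within each library (points), with the mean and SD of 3 libraries, with MI left of sham and Cre-positive left of Cre-negative. Tln2 to Tln1 and Parvb to Parva are lower after MI than after sham surgery, Fermt3 to Fermt2, Actn1 to Actn4 and Itga5 to Itga7 are higher, and Lims2 to Lims1 overlaps between Cre-positive MI and sham libraries.

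Focal adhesion kinase (Ptk2), the tyrosine kinase that integrin clustering activates, rose slightly. Ptk2 had 42.9, 40.5 and 41.9 CPM in Cre-positive MI and 43.1, 43.5 and 44.96 CPM in Cre-negative MI libraries, against 34.98, 32.3 and 37.8 CPM in Cre-positive sham and 32.3, 35.4 and 37.2 CPM in Cre-negative sham libraries. The MI libraries were all above the sham libraries by a small margin. The change of Ptk2 on the log2 scale was 0.26 ± 0.09 in Cre-positive (adjusted p = 0.0361) and 0.33 ± 0.09 in Cre-negative hearts (adjusted p = 0.00892). The call in Cre-positive hearts was lost in 15 of 18 alternatives, and without Cre-positive sham library 2 the value was 0.16 (adjusted p = 0.163). In Cre-negative hearts it was lost without Cre-negative sham library 1 (0.25, adjusted p = 0.0708). Vinculin (Vcl), which reinforces the link from talin to actin, was not called. Vcl had 272, 257 and 275 CPM in Cre-positive MI and 281, 269.9 and 286 CPM in Cre-negative MI libraries, against 284, 309 and 258 CPM in Cre-positive sham and 287, 242 and 262 CPM in Cre-negative sham libraries. All groups overlapped. Its log2 fold change was -0.08 ± 0.10 in Cre-positive hearts (adjusted p = 0.521) and 0.08 ± 0.10 in Cre-negative hearts (adjusted p = 0.5). Paxillin (Pxn), an adaptor, rose by 0.46 ± 0.11 and 0.56 ± 0.11, and zyxin (Zyx), a tension-dependent adaptor, by 1.04 ± 0.14 and 1.64 ± 0.15.

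The tensins, which bind beta tails and actin, went separate ways. Tensin-1 (Tns1) was the most abundant of all 42 genes per transcript length in sham hearts, at 218 ± 72.6 and 191 ± 46.3 FPKM in Cre-positive and Cre-negative hearts, and it ranked after Itgb1 following MI, at 142 ± 19.9 and 126 ± 27.7 FPKM. Tns1 had 1404, 1516 and 1127 CPM in Cre-positive MI and 1394, 967 and 1046 CPM in Cre-negative MI libraries, against 1951, 3408 and 1949 CPM in Cre-positive sham and 2719, 1657 and 1835 CPM in Cre-negative sham libraries. Every sham library exceeded every MI library, and Cre-positive sham library 2 was far above the others. For Tns1 the log2 fold change, MI over sham, was -0.85 ± 0.25 in Cre-positive (adjusted p = 0.0154) and -0.87 ± 0.25 in Cre-negative hearts (adjusted p = 0.0117). The fall of Tns1 in Cre-positive hearts without Cre-positive sham library 2 was -0.57 ± 0.21 (adjusted p = 0.0382). The call was lost in Cre-positive hearts without Cre-positive MI library 3 (adjusted p = 0.0654) and in Cre-negative hearts without Cre-negative sham library 1 (adjusted p = 0.0505). Tensin-3 (Tns3) rose by 0.91 ± 0.12 and 1.11 ± 0.12.

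All 4 genes of the actin crosslinker group rose in both genotypes. Alpha-actinin-1 (Actn1), the nonmuscle alpha-actinin of stress fibres, had the smallest p of the 41 genes in both genotypes. Actn1 had 160.5, 179 and 202 CPM in Cre-positive MI and 248, 231 and 235 CPM in Cre-negative MI libraries, against 46.97, 39.5 and 41.7 CPM in Cre-positive sham and 44.5, 46.3 and 39.6 CPM in Cre-negative sham libraries. The sham groups overlapped, and both MI groups stood far above them. Actn1 changed, on the log2 scale, by 2.08 ± 0.11 in Cre-positive hearts (adjusted p = 1.28e-07) and by 2.45 ± 0.11 in Cre-negative hearts (adjusted p = 6.04e-08). Filamin A (Flna, mm10, chrX:74223461-74249854), which crosslinks actin and binds beta tails, followed the same order. Flna had 417, 377 and 416 CPM in Cre-positive MI and 613, 531 and 510.2 CPM in Cre-negative MI libraries, against 159, 128 and 122 CPM in Cre-positive sham and 118, 130.5 and 121 CPM in Cre-negative sham libraries. The Cre-positive MI libraries lay between the Cre-negative MI and the sham libraries. The change of Flna on the log2 scale was 1.56 ± 0.12 in Cre-positive (adjusted p = 1.26e-06) and 2.17 ± 0.12 in Cre-negative hearts (adjusted p = 1.34e-07). Iqgap1, a scaffold for Rac1 and Cdc42 at the leading edge, had the same order of groups. Iqgap1 had 169.8, 163 and 179.5 CPM in Cre-positive MI and 248, 239 and 219.5 CPM in Cre-negative MI libraries, against 69.2, 64.3 and 65.2 CPM in Cre-positive sham and 72.1, 67.1 and 64.6 CPM in Cre-negative sham libraries. For Iqgap1 the log2 fold change, MI over sham, was 1.37 ± 0.09 in Cre-positive (adjusted p = 3.86e-07) and 1.79 ± 0.09 in Cre-negative hearts (adjusted p = 6.7e-08). Actn4, the second nonmuscle alpha-actinin, rose by 0.74 ± 0.08 and 1.10 ± 0.08. The ratio of Actn1 to Actn4 in FPKM was 0.802 ± 0.0871 in Cre-positive MI hearts and 0.868 ± 0.0470 in Cre-negative MI, against 0.317 ± 0.0164 and 0.339 ± 0.0230 in Cre-positive and Cre-negative sham hearts.

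**Figure D4:**
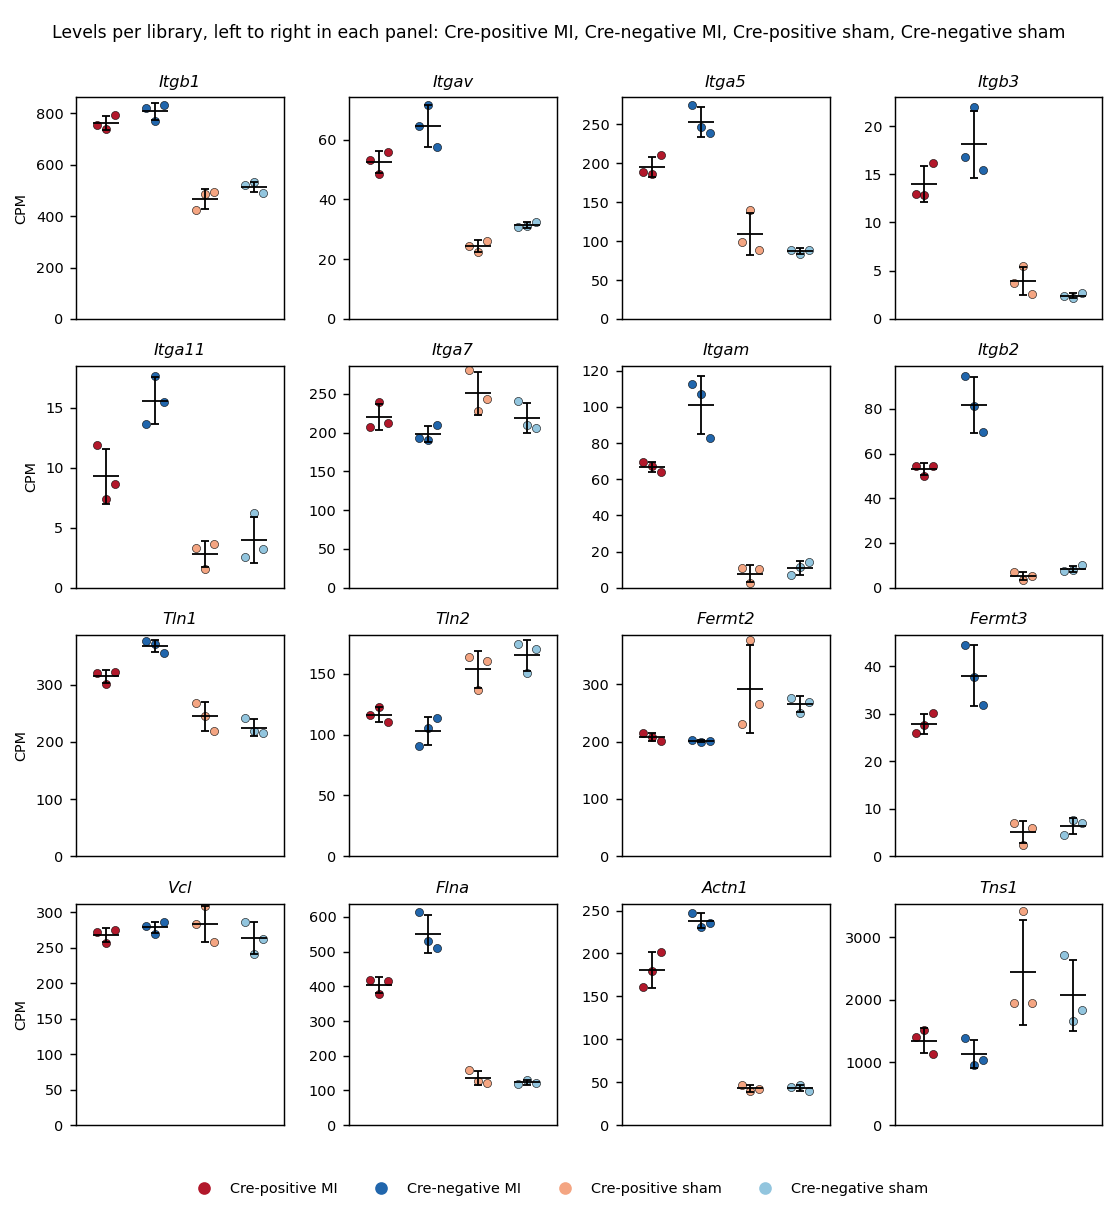
CPM of 16 genes in each library (points) with the mean and SD of 3 libraries per group; within each panel MI is left of sham and Cre-positive left of Cre-negative. Itgam, Itgb2, Flna and Actn1 show 3 levels, highest in Cre-negative MI, lower in Cre-positive MI and lowest in both sham groups, whereas Itga7 and Vcl overlap between groups.

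Since several of these genes moved together, the 250 bases before their transcription starts were searched on both strands for 2 motifs with values of these data already known: the CArG box bound by serum response factor, and GGAATG, the core bound by TEAD factors, the DNA-binding partners of Yap. RefSeq start sites (GRCm38.p6) were found for 31 of the 42 genes, with 37 start windows. A CArG box stood in 3 of these 37 windows (Fermt2, Itgb6 and Vcl), against 1.47% of 32851 windows of all genes, and GGAATG in 5 (Actn4, Flna, Itga10, Itgb1 and Vcl), against 12.6% of all windows. Some windows precede a RefSeq start that lies within the span of the gene: those of Fermt2, Flna and Itgb6 lie wholly or almost wholly inside it, so no sequence is shown for them. Actn4, which rose, also has its GGAATG match before the first base of the gene span, and its sequence is not shown. The 3 sequences below hold a match before the first base of the gene span in genes with distinct patterns: Vcl, with both motifs and no change called, and Itgb1 and Itga10, which rose. Capitals mark the matches, which do not overlap each other, and each sequence runs 5′ to 3′ on the strand of its gene.
Vcl, chr14:20929148-20929397, plus strand: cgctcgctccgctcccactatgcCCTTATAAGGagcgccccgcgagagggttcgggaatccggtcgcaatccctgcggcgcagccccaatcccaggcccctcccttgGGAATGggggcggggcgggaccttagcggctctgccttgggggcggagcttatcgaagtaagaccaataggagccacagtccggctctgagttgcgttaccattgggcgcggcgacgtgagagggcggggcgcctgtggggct
Itgb1, chr8:128685404-128685653, plus strand: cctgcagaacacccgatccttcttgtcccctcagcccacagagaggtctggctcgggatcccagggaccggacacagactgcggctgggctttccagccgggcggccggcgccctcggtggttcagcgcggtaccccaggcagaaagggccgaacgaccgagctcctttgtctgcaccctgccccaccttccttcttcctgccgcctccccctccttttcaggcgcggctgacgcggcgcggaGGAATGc
Itga10, chr3:96645334-96645583, plus strand: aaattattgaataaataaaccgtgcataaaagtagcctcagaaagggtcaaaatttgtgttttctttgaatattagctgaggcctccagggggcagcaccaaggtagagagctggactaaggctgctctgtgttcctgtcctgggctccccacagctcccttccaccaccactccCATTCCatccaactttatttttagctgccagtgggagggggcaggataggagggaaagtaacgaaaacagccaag
In Vcl the CArG box begins 227 bases and GGAATG 143 bases before the start, and the last 15 bases of its window lie inside the gene span. In Itgb1 GGAATG begins 7 bases before the start, and in Itga10 it lies on the opposite strand at 75 bases. Genes with a match include ones that rose, fell and were not called after MI. A match of letters is not evidence of binding.

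The second question was how Cre-positive hearts compared with Cre-negative hearts after MI. No gene passed the test: 0 of the 41 genes were called higher or lower, as were 0.0% of all 13678 tested genes by edgeR, and the smallest adjusted p among the 41 was 0.187. Below that threshold the values leaned to one side. In 22 of the 41 genes (53.7%) every Cre-positive MI library lay below every Cre-negative MI library, and in 0 of them above, while 15.2% of all tested genes lay wholly below and 12% wholly above. At an unadjusted p under 0.05, 15 of the 41 were lower (36.6%) and 0 higher, against 6.95% lower and 12.6% in either direction among all tested genes. The median log2 fold change, Cre-positive over Cre-negative, was -0.23 for the 41 genes and -0.0072 for all tested genes. The count of 15 was 8 without Cre-positive MI library 2, 8 with Y-linked transcripts as a term, and 10 to 19 when any other 1 library was left out.

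Iqgap1, Flna and Actn1, whose values per library are given above, had the smallest p-values. Iqgap1 differed by -0.46 ± 0.08 on the log2 scale (adjusted p = 0.187), Flna by -0.45 ± 0.12 (adjusted p = 0.24) and Actn1 by -0.40 ± 0.10 (adjusted p = 0.243), with 3 of 3 Cre-positive MI libraries below all Cre-negative MI libraries in each. DESeq2 called these 3 and Actn4 lower, while over all tested genes DESeq2 called 87 higher and 90 lower. Its adjusted p was 0.000225 for Iqgap1, 0.0317 for Flna, 0.0386 for Actn1 and 0.0394 for Actn4, whereas under the other 17 alternatives none of the 4 was called and the adjusted p reached 0.76. The authors' deposited table, named as a DESeq2 result, lists 10 of the 42 genes as lower and 0 as higher at an adjusted p under 0.05, against 383 lower and 380 higher genes in all (2.23% of 17182 lower). The 10 genes in the authors' deposited table are Iqgap1, Itgb2, Itgam, Flna, Itga6, Itga5, Actn1, Itga11, Tns3 and Actn4.

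By role, all 4 actin crosslinkers and 5 of the 7 leukocyte and alpha 4 or 9 subunits had Cre-positive MI libraries wholly below the Cre-negative ones. So had 2 of 3 RGD-binding alpha subunits (Itga5 and Itgav), 3 of 6 genes of the ILK, PINCH and parvin group (Ilk, Parvg and Lims1), 3 of 6 kinases and scaffolds (Zyx, Ptk2 and Tns3), and 2 of 4 talins and kindlins (Tln1 and Fermt3). Among matrix receptors Itga11, Itga6 and Itgb5 did as well, while 15.2% of all tested genes lay wholly below. Itgb1, by contrast, overlapped between the genotypes, at -0.08 ± 0.09. Lims1 and Ptk2, though wholly below, differed little on the log2 scale. Lims1 was at -0.03 ± 0.14, and Ptk2 was at -0.09 to -0.05 over the alternatives. The 8 genes with a positive value were Itga3, Itga7, Itga8, Itga10, Tln2, Fermt2, Lims2 and Tns1. None of these 8 had libraries that stood apart, and the largest was Itga10, at 0.28 ± 0.31.

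As given above, summed myofibroblast, fibroblast and macrophage markers were lower, and summed cardiomyocyte markers higher, in all 3 Cre-positive MI than in all 3 Cre-negative MI libraries. Their part in the lower values of these genes was not tested. The myofibroblast list includes Postn, the locus that carries the recombinase, and its sum without Postn was not taken. Of single markers, 9 of 14 macrophage, 4 of 8 myofibroblast and 4 of 10 fibroblast markers had Cre-positive MI libraries wholly below, against 15.2% of all tested genes. Wholly above were 8 of 12 cardiomyocyte markers and 1 of 10 fibroblast markers, against 12% of all tested genes. Y-linked transcripts were present in 1 of 3 Cre-positive MI and 3 of 3 Cre-negative MI libraries, and with them as a term the count of 15 was 8, as given above.

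**Figure D5:**
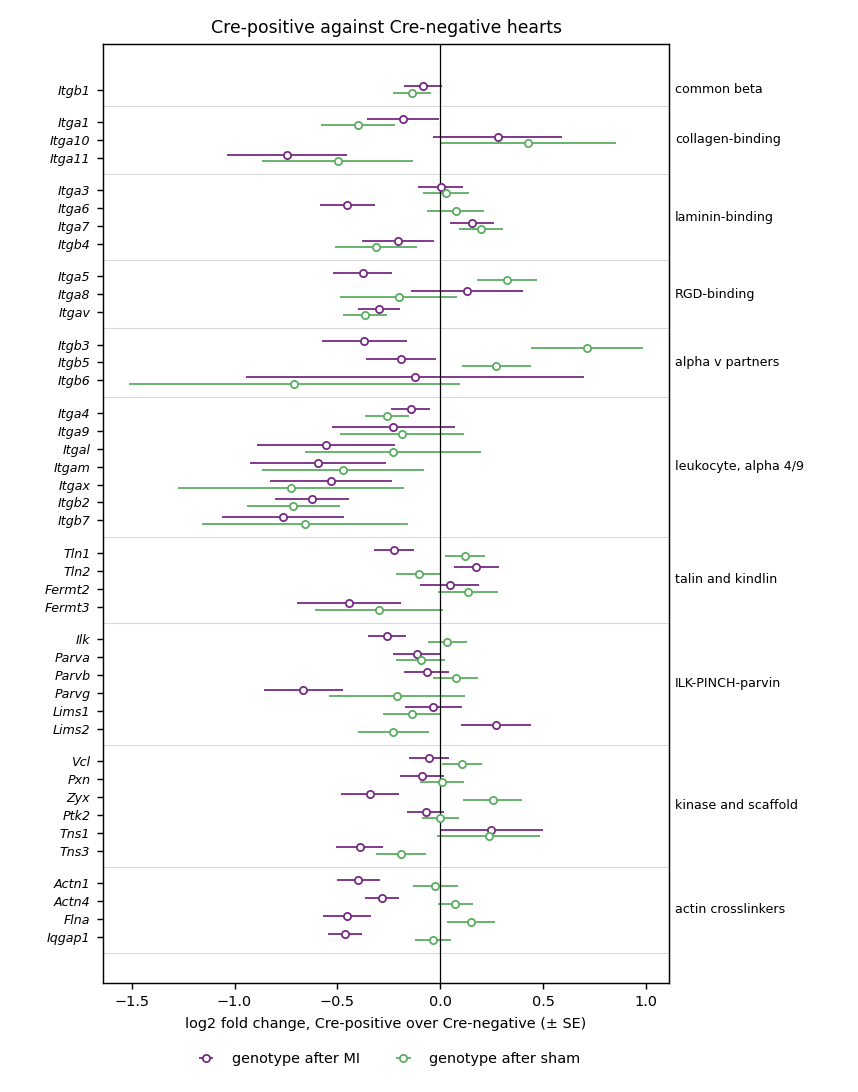
Log2 fold change (Cre-positive over Cre-negative) with its standard error for the 41 tested genes, by role, after MI (purple) and after sham surgery (green). All points are open because none passed an adjusted p under 0.05; after MI the 4 actin crosslinkers and the 7 leukocyte and alpha 4 or 9 subunits lie left of 0.

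After sham surgery the genotypes were compared without injury. DESeq2 called 0 of the 41 genes, while over all tested genes it called 11 higher and 28 lower. By edgeR 0 of the 41 genes were called, against 0.0512% of all tested genes called lower and 0.0% higher. The smallest adjusted p among the 41 was 0.582 by edgeR. At an unadjusted p under 0.05, 4 were lower and 2 higher, against 4.52% lower and 8.22% in either direction among all tested genes. The lowest p-values were those of Itgav (-0.37 ± 0.11, adjusted p = 0.582), Itgb2 (-0.71 ± 0.23, adjusted p = 0.582) and Itgb3 (0.71 ± 0.27, adjusted p = 0.586). For Itgav and Itgb2 all 3 Cre-positive sham libraries lay below all Cre-negative ones, as they did for Itga4, Itgb4 and Itgb7, while 5.15% of all tested genes did so. In 0 of the 41 genes did the Cre-positive sham libraries lie wholly above, as they did in 5.5% of all tested genes. Leaving out Cre-positive sham library 2 gave 0.43 ± 0.26 for Itgb3, -0.44 ± 0.20 for Itgb2 and -0.28 ± 0.11 for Itgav. Without that library, the count at an unadjusted p under 0.05 was 3 lower and 1 higher, without Cre-positive sham library 1 it was 7 lower and 2 higher, without Cre-positive sham library 3 it was 4 lower and 4 higher, and without Cre-negative sham library 2 or 3 it was 2 lower.

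Whether the injury response itself differed between the genotypes was tested with an interaction term (MI over sham in Cre-positive hearts minus MI over sham in Cre-negative hearts). This comparison uses the same libraries as the others and is no separate evidence. For the interaction DESeq2 called 0 of the 41 genes, while over all tested genes it called 21 higher and 13 lower. By edgeR 0 of the 41 genes and 0.0% of all tested genes in either direction were called, with a smallest adjusted p of 0.552 among the 41. At an unadjusted p under 0.05, 10 of the 41 were lower and 0 higher, while 3.9% of all tested genes were lower and 8.16% passed in either direction. These 10 were Flna, Iqgap1, Itga5, Itgb3, Actn4, Zyx, Itga6, Tln1, Actn1 and Ilk. Flna had a difference of -0.60 ± 0.17 (adjusted p = 0.552), Iqgap1 of -0.43 ± 0.12 (adjusted p = 0.552) and Itga5 of -0.70 ± 0.20 (adjusted p = 0.552), each a smaller log2 rise in Cre-positive than in Cre-negative hearts. For Itga5, Cre-positive hearts had the lower values after MI and, with overlap, the higher mean after sham surgery. Without Cre-positive sham library 2 its difference was -0.50 ± 0.14 (adjusted p = 0.269, range over the alternatives 0.132 to 0.897). Without Cre-positive sham library 1 the count of 10 was 6. The leukocyte subunits Itgam, Itgax, Itgb2 and Itgb7, whose genotype values were negative after both surgeries, had interaction values of -0.12 ± 0.52, 0.19 ± 0.60, 0.09 ± 0.29 and -0.11 ± 0.63. Those values were -0.56 ± 0.29 for Itgam, -0.22 ± 0.61 for Itgax, -0.17 ± 0.24 for Itgb2 and -0.36 ± 0.65 for Itgb7 without Cre-positive sham library 2.

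The wider pathway was described from lists of other adhesion genes. Of 68 tested focal adhesion adaptors and signalling genes outside the 42, 27 rose and 6 fell in Cre-positive hearts after MI, and 39 rose and 7 fell in Cre-negative hearts, with median log2 fold changes of 0.31 and 0.35. Over all tested genes 25.7% rose and 19.5% fell in Cre-positive hearts, and 29.9% rose and 24.4% fell in Cre-negative hearts. Cd44, the hyaluronan receptor, had 56.0 to 66.1 CPM in Cre-positive MI and 87.0 to 95.7 CPM in Cre-negative MI, against 7.32 to 14.02 and 10.25 to 13.7 CPM in Cre-positive and Cre-negative sham libraries. It rose by 2.58 ± 0.19 and 2.94 ± 0.19 in Cre-positive and Cre-negative hearts. Csrp1, a zyxin-binding LIM protein of smooth muscle and stroma, rose by 1.56 ± 0.12 and 1.96 ± 0.12. Iqgap3, the Iqgap of dividing cells, had 8.41 to 13.2 CPM in Cre-positive MI and 12.9 to 16.7 CPM in Cre-negative MI, against 0.0804 to 0.206 and 0.282 to 0.986 CPM in Cre-positive and Cre-negative sham libraries. Its Cre-positive sham values lay at or below the level that 3 counts correspond to (0.198 to 0.292 CPM). Actn2, Tns2, Ptpn11 and Itgb1bp2 were among the genes that fell in both genotypes; Actn2 is the sarcomeric alpha-actinin and Itgb1bp2 is melusin, a beta-1 binding protein of muscle. In the genotype comparison after MI 0 of the 68 were called, 24 lay wholly below and 5 wholly above, against 15.2% and 12% of all tested genes. From a short list of 6 other integrin and integrin-like genes, 3 could be tested. These 3, the integrin genes Itga2 and Itga2b and the integrin-like Itgbl1, rose after MI in both genotypes.

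Among 39 tested ligands of integrins, 24 rose and 1 fell in Cre-positive hearts after MI, and 28 rose and 6 fell in Cre-negative hearts, with median log2 fold changes of 0.82 and 1.04, beside the same shares of all tested genes (25.7% and 19.5% in Cre-positive, 29.9% and 24.4% in Cre-negative hearts). Fn1 (fibronectin), the ligand of the receptor with the alpha subunit Itga5, had 1158 to 1414 CPM in Cre-positive MI and 1821 to 1884 CPM in Cre-negative MI, against 45.8 to 81.4 and 107.5 to 179 CPM in Cre-positive and Cre-negative sham libraries. Lamb2, a chain of the laminins that Itga7 receptors bind, fell in both genotypes. After MI, 0 of the 39 were called between the genotypes, with 21 wholly below and 5 wholly above, against 15.2% and 12% of all tested genes. After sham surgery 3 were called lower in Cre-positive hearts, Postn, Tnc (tenascin-C) and Spp1 (osteopontin), against 0.0512% of all tested genes. Of the 39, 10 lay wholly below and 0 wholly above after sham surgery, against 5.15% and 5.5% of all tested genes. Postn is the locus that carries the recombinase. Spp1 and Tnc are ligands of the alpha v beta 3 and alpha 9 receptors, and Spp1 had 0.402 to 1.03 CPM in Cre-positive sham libraries, against 2.895 to 4.63 CPM in Cre-negative sham libraries.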

How the data were processed

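Total RNA of mouse left ventricle was extracted with TRIzol and sequenced, and 12 libraries in 4 groups of 3 were grouped by their labels. Per the submitters' processing notes, Bowtie2 2.2.5, RSEM 1.2.12 and the mm10 build were used. The authors deposited RSEM expected counts per gene, of which 74% of those above 0 were whole within 0.005, and FPKM values per gene. The authors' deposited table of comparisons gives log2 fold changes and p-values; its name says DESeq2, and the version and settings are not given in the sources used here.

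Expected counts were rounded to whole numbers. Genes were kept by edgeR's filter with a minimum count of 10 (13678 of 17471), scaled by TMM and tested with edgeR 4.0.16 (R 4.3.3, limma 3.58.1) by the quasi-likelihood test in 1 fit of all 12 libraries, with 8 residual degrees of freedom. P-values were Benjamini-Hochberg adjusted over all 13678 genes, and a gene was called at an adjusted p under 0.05. Standard errors were derived from the quasi-likelihood F statistic. CPM use the scaled library sizes, and 3 counts correspond to 0.198 to 0.292 CPM, which is counting error only. DESeq2 1.42.0 was an alternative, beside other scaling, no filter, a replicate block, a Y-linked term, only the libraries compared, and each library left out in turn.

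Values per library are given for a fixed set of 13 genes, for the 5 largest rises and 5 largest falls among called genes of each injury comparison, and for the called genes, or the 3 with the smallest p, of each genotype comparison and of the interaction. The genes and lists were chosen with earlier results of these data known. Promoter sequences come from RefSeq (GRCm38.p6).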

Additional observations from a re-analysis of the deposited data

How the results depend on the processing

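Of the called genes, 25 of 31 in Cre-positive and 28 of 32 in Cre-negative hearts kept their call after MI in all 18 alternatives, and no called gene reversed. Leaving out 1 library gave 26 to 27 rises and 1 to 6 falls in Cre-positive hearts, and 27 to 28 rises and 2 to 4 falls in Cre-negative hearts. With only the 6 libraries compared, the falls in Cre-positive hearts numbered 2. Between genotypes after MI, DESeq2 called 4 genes lower where edgeR called 0, and over all genes it called 87 higher and 90 lower where edgeR called 0 and 0; the cause was not tested. Among the 41 tested genes of this report, leaving out 1 library gave 0 calls in both genotype comparisons and in the interaction. Values that were not called changed sign 13 and 1 times in the injury comparisons in Cre-positive and Cre-negative hearts, 12 and 27 times between genotypes after MI and sham, and 49 times in the interaction. Taken from counts without division by length, Itgb1 was 72.2% and 69.2% of the beta subunits in Cre-positive and Cre-negative MI hearts and 67.6% and 72.0% in Cre-positive and Cre-negative sham hearts.

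The labels do not say whether the replicate numbers pair the libraries, and weak correlations between libraries cannot exclude it. Same-numbered libraries had correlations of -0.154 to 0.288 over 18 pairs, 4 of them over 0.1, and 5 of 12 libraries correlated best with their own number. Differently numbered libraries of different groups had correlations of -0.309 to 0.22. With the replicate block the calls were 27 higher and 4 lower in Cre-positive and 28 higher and 4 lower in Cre-negative hearts after MI, and 0 in the other comparisons. With 3 libraries per group, small differences between genotypes were not detectable with precision. Low genes such as Itgax, Itgb7, Parvg and Itga10 rest on few reads in sham hearts.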
